A study of Homo sapiens with 6 samples.

Results

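The classical MHC class II chain genes are described here in U2932 cells with silenced ROCK2 and in their controls. The 10 genes HLA-DRA, HLA-DRB1, HLA-DRB5, HLA-DRB6, HLA-DPA1, HLA-DPB1, HLA-DQA1, HLA-DQA2, HLA-DQB1 and HLA-DQB2 were picked by symbol from the 20667 gene symbols listed for each library. All 10 were listed in all 6 libraries, and all 10 passed the filter on low values.

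U2932 is an established human lymphoma line of the ABC-DLBCL type, an aggressive lymphoma of activated B cells. The cells were infected with lentivirus from pLKO.1 vectors that carry a puromycin resistance cassette and tGFP, and expressed either an shRNA against ROCK2 (ROCK2 KD) or a scrambled shRNA (Scr). Both groups therefore carried the vector, and each was sequenced as 3 libraries from total RNA, numbered replicates 1, 2 and 3. The labels do not say whether replicates came from separate cultures, so p-values measure the spread between these libraries, which may be technical.

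MHC class II molecules are pairs of an alpha and a beta chain that present peptides to CD4+ T cells. B cells make them constitutively, in the isotypes HLA-DR, HLA-DP and HLA-DQ, under the coactivator CIITA, which acts on promoters that share an X box, bound by the RFX complex, and a Y box, bound by NF-Y. The invariant chain CD74 holds new class II molecules, and HLA-DM loads them with peptide.

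HLA-DQA2 and HLA-DQB2 encode chains of an additional DQ molecule, whereas HLA-DRB6 is a pseudogene, listed in the annotation as a long noncoding RNA. All 10 genes lie on chromosome 6 (GRCh37), within the MHC. HLA-DRA (chr6:32407655-32412823, + strand) was followed by HLA-DRB5 (chr6:32485130-32498064, - strand), HLA-DRB6 (chr6:32520490-32527799, - strand) and HLA-DRB1 (chr6:32545679-32557625, - strand). The DQ genes were HLA-DQA1 (chr6:32595956-32614839, + strand), HLA-DQB1 (chr6:32627244-32636160, - strand), HLA-DQA2 (chr6:32709168-32714975, + strand) and HLA-DQB2 (chr6:32723875-32731309, - strand). HLA-DPA1 (chr6:33032346-33048552, - strand) and HLA-DPB1 (chr6:33043767-33057473, + strand) overlap on opposite strands, and strand was not stated for the libraries, so reads from the overlap cannot be told apart.

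Promoters of 8 of the 10 genes were in the RefSeq table (GRCh38.p14). HLA-DRA and HLA-DRB6 had no entry. The following stretches of 60 bases lie upstream of the gene start, on the strand of the gene, and are shown for the 7 genes in which the letters of the Y box were found. Capitals mark the Y box letters ATTGG and, in HLA-DQB1, the end of the X box, ACAGA.
HLA-DRB1 (chr6:32589880-32589939, - strand): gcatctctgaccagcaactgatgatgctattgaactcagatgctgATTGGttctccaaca
HLA-DRB5 (chr6:32530363-32530422, - strand): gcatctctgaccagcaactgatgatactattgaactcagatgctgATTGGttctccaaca
HLA-DPB1 (chr6:33075846-33075905, + strand): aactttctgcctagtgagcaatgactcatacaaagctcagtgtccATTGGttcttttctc
HLA-DQA1 (chr6:32637293-32637352, + strand): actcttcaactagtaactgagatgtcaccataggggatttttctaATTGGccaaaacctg
HLA-DQA2 (chr6:32741278-32741337, + strand): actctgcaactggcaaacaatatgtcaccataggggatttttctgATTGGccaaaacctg
HLA-DQB1 (chr6:32666731-32666790, - strand): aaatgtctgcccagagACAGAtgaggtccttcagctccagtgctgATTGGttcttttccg
HLA-DQB2 (chr6:32763606-32763665, - strand): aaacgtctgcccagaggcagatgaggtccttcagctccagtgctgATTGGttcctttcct

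ATTGG was found in 7 of the 8 genes with a promoter, but also, on either strand, in 34.6% of the 35116 promoters in the table. It was not found in the windows of HLA-DPA1. The full spelling searched, ACAGA followed after 15 to 25 bases by ATTGG on either strand, occurred in HLA-DQB1 and in 0.595% of all promoters. Over these stretches, HLA-DRB1 and HLA-DRB5 were identical at 59 of 60 bases, HLA-DQB1 and HLA-DQB2 at 56 and HLA-DQA1 and HLA-DQA2 at 52. A match is a description of letters, and promoter use was not measured.

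ROCK2 was at 2.75, 5.35 and 1.26 FPKM in ROCK2 KD replicates 1, 2 and 3, and at 4.32, 7.21 and 5.78 in Scr, and was lower in ROCK2 KD in each pair. FPKM, the unit of the deposited values, are mapped fragments relative to the length of the transcript and to all mapped fragments of the library. The limma fit, which used the replicate number as a block on log2(scaled FPKM + 1), gave a log2 fold change of -0.81 ± 0.22 (SE, n = 3 a group, adjusted p = 0.811). The library sums of FPKM ran from 208289 to 480612, and these values do not hold the read count behind each level. Of 7 B cell marker genes all passed the filter, with summed FPKM of 462 to 1510 in ROCK2 KD and 327 to 1550 in Scr. The sum over 8 monocyte, macrophage and dendritic markers was 0.774 to 7.64 and 0.584 to 3.90, nearly all of its highest value being CD1C at 7.35, and FCGR3A, ITGAX and FCER1A were listed at 0 in every library. The sum over 4 T cell markers was 0.321 to 0.758 and 0.0902 to 0.279, mostly CD3E, with CD2 listed at 0 throughout.

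For every one of the 10 class II genes, ROCK2 KD was higher than Scr in all 3 pairs of the same number, while the groups overlapped for each gene because the replicates differed more than the conditions. In pair 2 the difference ranged from 1.41-fold for HLA-DPB1 to 2.62-fold for HLA-DQA1, and in pair 3 from 1.01-fold for HLA-DQB2 to 1.67-fold for HLA-DRB6, on scaled FPKM. None passed an adjusted p of 0.05 in limma, and 0 of 10526 genes tested did, a background of 0%. In bulk RNA, more class II RNA per cell and a larger share of cells that express it cannot be told apart.

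**Figure D1:**
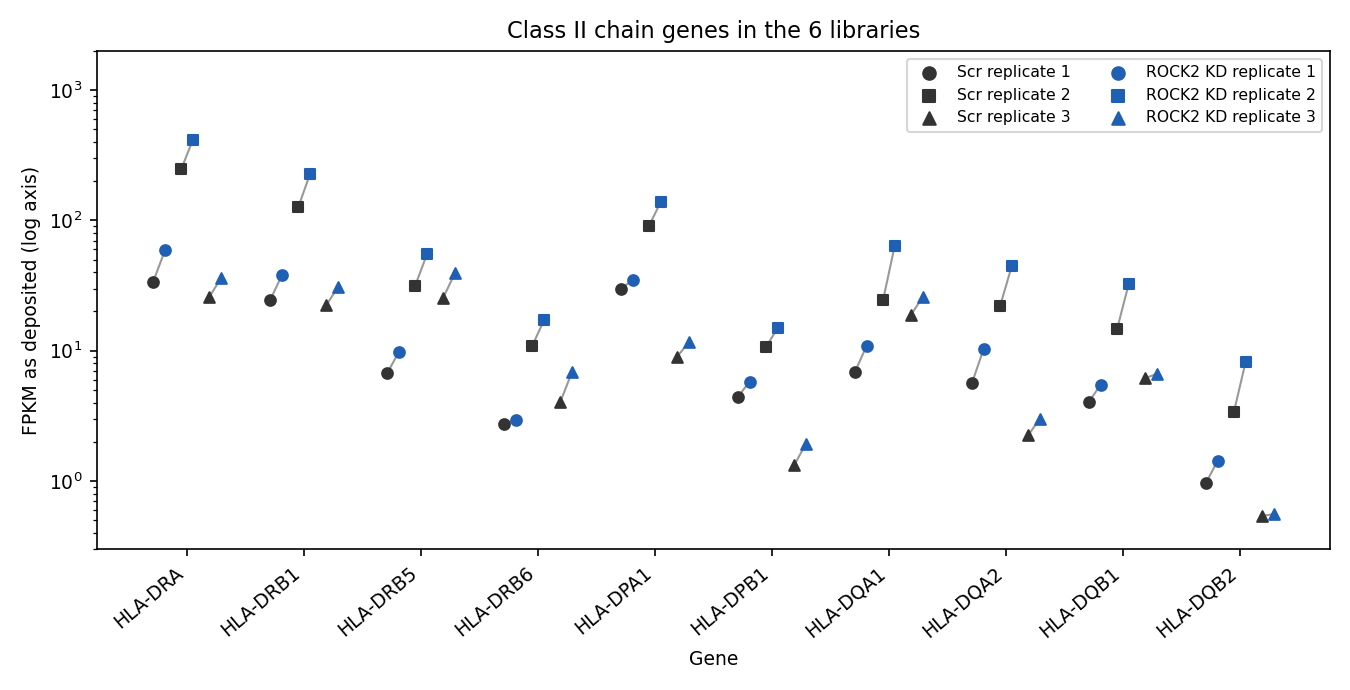
FPKM as deposited (log axis) of the 10 class II chain genes in the 6 libraries, with black symbols for Scr, blue for ROCK2 KD, shapes for replicates and lines joining same-numbered libraries. All 30 lines go up from Scr to ROCK2 KD, while replicate 2 is above replicate 1 for every gene.

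HLA-DRA encodes the alpha chain of HLA-DR, which pairs with each DR beta chain. Its FPKM were 58.8, 416 and 36.2 in ROCK2 KD and 33.9, 248 and 25.8 in Scr for replicates 1, 2 and 3, with means of 170.5 ± 213 and 103 ± 126 (SD, n = 3). Replicate 2 was the highest in both groups, and the groups overlapped, but each ROCK2 KD library was above its partner, 1.73-fold, 1.68-fold and 1.38-fold on scaled FPKM. The limma log2 fold change was 0.66 ± 0.11 (SE), with an unadjusted p of 5.1e-04 and an adjusted p of 0.811.

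HLA-DRB1, the main DR beta chain, was at 37.9, 226 and 30.9 FPKM in ROCK2 KD and at 24.5, 126 and 22.3 in Scr. HLA-DRB5, a further DR beta chain carried by some haplotypes, was at 9.79, 54.9 and 39.4 in ROCK2 KD and 6.71, 31.6 and 25.6 in Scr. In both genes the ROCK2 KD library was the higher of each pair, by 1.37-fold to 1.79-fold for HLA-DRB1 and by 1.46-fold to 1.74-fold for HLA-DRB5. The limma log2 fold changes were 0.63 ± 0.11 for HLA-DRB1 and 0.62 ± 0.11 for HLA-DRB5 (SE), both with an adjusted p of 0.811.

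HLA-DRB6 was at 2.93, 17.1 and 6.84 FPKM in ROCK2 KD and at 2.76, 10.9 and 4.04 in Scr. Pair 1 differed 1.06-fold and pairs 2 and 3 differed 1.57-fold and 1.67-fold, and its limma log2 fold change was 0.42 ± 0.14 (SE, adjusted p = 0.888).

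HLA-DPA1 and HLA-DPB1 encode the alpha and beta chains of HLA-DP. HLA-DPA1 was at 35.1, 139 and 11.7 FPKM in ROCK2 KD and 29.8, 91.0 and 9.003 in Scr, and HLA-DPB1 at 5.80, 15.03 and 1.93 against 4.45, 10.7 and 1.32. The pairs differed 1.18-fold to 1.53-fold for HLA-DPA1 and 1.30-fold to 1.44-fold for HLA-DPB1. Their limma log2 fold changes, 0.38 ± 0.11 (adjusted p = 0.811) and 0.36 ± 0.11 (adjusted p = 0.831), were the smallest of the 10.

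HLA-DQA1 and HLA-DQB1 encode the DQ alpha and beta chains. HLA-DQA1 was at 10.95, 64.1 and 25.9 FPKM in ROCK2 KD and at 6.89, 24.5 and 18.9 in Scr. HLA-DQB1 was at 5.47, 32.4 and 6.65 in ROCK2 KD and 4.06, 14.6 and 6.14 in Scr. The differences were uneven between pairs: 1.59-fold, 2.62-fold and 1.35-fold for HLA-DQA1, and 1.35-fold, 2.23-fold and 1.07-fold for HLA-DQB1. The limma log2 fold change of HLA-DQA1, 0.79 ± 0.18 (adjusted p = 0.811), was the largest of the 10, with 0.52 ± 0.19 (adjusted p = 0.897) for HLA-DQB1. Without replicate 2 the value of HLA-DQA1 was 0.51, below the 0.61 of HLA-DRA.

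HLA-DQA2 was at 10.3, 44.5 and 3.01 FPKM in ROCK2 KD and at 5.65, 22.0 and 2.24 in Scr. HLA-DQB2 was the lowest of the 10 genes in all 6 libraries, at 1.43, 8.22 and 0.558 in ROCK2 KD and 0.965, 3.41 and 0.541 in Scr. HLA-DQB2 reached 1 FPKM, the level of the filter, only in ROCK2 KD replicates 1 and 2 and in Scr replicate 2. It thus passed the filter through the group where it was higher. Pair 2 again differed most, 2.02-fold and 2.41-fold, and in pair 3 HLA-DQB2 differed 1.01-fold. limma gave log2 fold changes of 0.68 ± 0.15 for HLA-DQA2 (adjusted p = 0.811) and 0.46 ± 0.20 for HLA-DQB2 (adjusted p = 0.909). Without replicate 2 the values of HLA-DQB1 and HLA-DQB2 were 0.23 and 0.18.

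**Figure D2:**
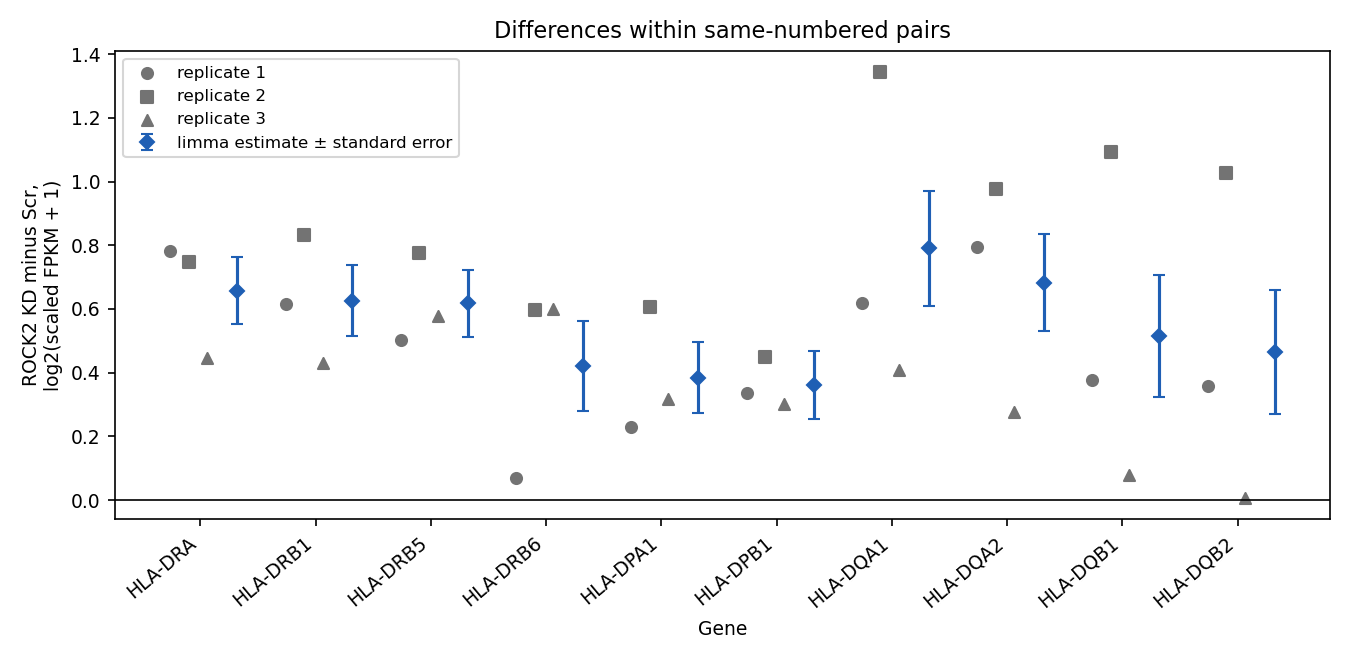
Difference between ROCK2 KD and Scr in log2(scaled FPKM + 1) for each gene, with grey shapes for the 3 same-numbered pairs and blue diamonds for the limma estimate with its standard error. All 30 pair differences are above 0, and those of HLA-DQB1 and HLA-DQB2 in pair 3 lie at 0.08 and 0.01.

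The 10 genes together had a median log2 fold change of 0.57, against -0.00 over all genes tested, with pair medians of 0.44, 0.80 and 0.36. Higher in all 3 pairs were 10 of 10, against 12.7% of all genes tested, and 9 of 10 had an unadjusted p under 0.05 and were higher, against 3.09%. Their log2 fold changes lay between the percentiles 97.6 and 99.8 of all genes tested. HLA-DQB2, which passed the filter on low values through the group where it was higher, is among the 10. These counts describe genes that lie next to one another, share sequence and were chosen by family, with earlier results of these data known. The genes are not independent of one another, and the counts are a description and not a test.

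The order of levels, which FPKM allow since they are per length, was led by HLA-DRA in each library of replicates 1 and 2, followed by HLA-DRB1 and HLA-DPA1, which changed places between libraries. In replicate 3, HLA-DRB5 was above HLA-DRA in ROCK2 KD and just below it in Scr (25.6 against 25.8). HLA-DRB5 relative to HLA-DRB1 was 0.258, 0.243 and 1.27 in ROCK2 KD and 0.274, 0.250 and 1.15 in Scr, so that replicate 3 stood apart in both groups. HLA-DQA2 relative to HLA-DQA1 was 0.942, 0.695 and 0.116 in ROCK2 KD and 0.821, 0.898 and 0.118 in Scr, apart in replicate 3 in the other direction. HLA-DQB2 relative to HLA-DQB1 was 0.262, 0.253 and 0.0839 in ROCK2 KD and 0.238, 0.234 and 0.0881 in Scr.

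These near copies can share reads. Of the stretches of 50 bases in the longest annotated transcript, 8.49% of those of HLA-DRB5 were also found in transcripts of HLA-DRB1, 10.4% of those of HLA-DQA2 in HLA-DQA1 and 3.95% of those of HLA-DQB2 in HLA-DQB1. None of those of HLA-DRA or HLA-DPA1 were found in transcripts of another of the 10 genes, each read on its own strand. Reverse complements were not searched, so the overlap of HLA-DPA1 and HLA-DPB1 on opposite strands does not enter. The alleles of U2932 were not known here, so the split of reads between HLA-DRB1, HLA-DRB5 and HLA-DRB6 and between the DQ copies is uncertain.

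The balance between isotypes was compared within each library, where the scaling of the library cancels. The isotype level was the mean of log2 alpha and log2 beta FPKM, with HLA-DRB1 and HLA-DRB5 summed as DR beta and the DQ copies summed likewise. All ratios use FPKM as deposited, and in replicate 3 these were written differently between genes, as described below. The DR to DP ratio was 3.71, 7.48 and 10.6 in ROCK2 KD and 2.82, 6.34 and 10.2 in Scr, higher in ROCK2 KD in each pair by a log2 difference of 0.23 ± 0.17 (SD, n = 3 pairs), less than the range between replicates of 1.85 in Scr. Without replicate 1 this difference was 0.15. The DQ to DR ratio was 0.229, 0.194 and 0.286 against 0.244, 0.146 and 0.338, and the pairs did not share a direction. The DQ to DP ratio was 0.850, 1.45 and 3.04 against 0.689, 0.927 and 3.45, higher in ROCK2 KD in pairs 1 and 2 and lower in pair 3.

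The alpha to beta balance was closest to 1 in DR. The DR alpha to beta ratio was 1.23, 1.48 and 0.514 in ROCK2 KD and 1.09, 1.57 and 0.540 in Scr, with replicate 3 the lowest in both. In replicate 3 the deposited values of HLA-DRA had 15 significant digits and those of HLA-DRB1 and HLA-DRB5 had 6, as described below. The DP ratio was 6.05, 9.25 and 6.04 in ROCK2 KD and 6.69, 8.51 and 6.81 in Scr. The DQ ratio was 3.08, 2.67 and 4.01 in ROCK2 KD and 2.50, 2.59 and 3.17 in Scr, higher in ROCK2 KD in each pair by a log2 difference of 0.23 ± 0.16 (SD, n = 3 pairs).

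The exact two-sided permutation test over sign changes of 3 pairs cannot give a p under 0.25. It gave 0.25 for the DR to DP ratio and for the DQ alpha to beta ratio, 0.75 for each after Benjamini-Hochberg adjustment over the 6 ratios, and 0.50 to 1 for the other 4. This test could therefore not establish a difference in isotype or chain balance with 3 pairs, and no other paired test of the ratios was run.

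**Figure D3:**
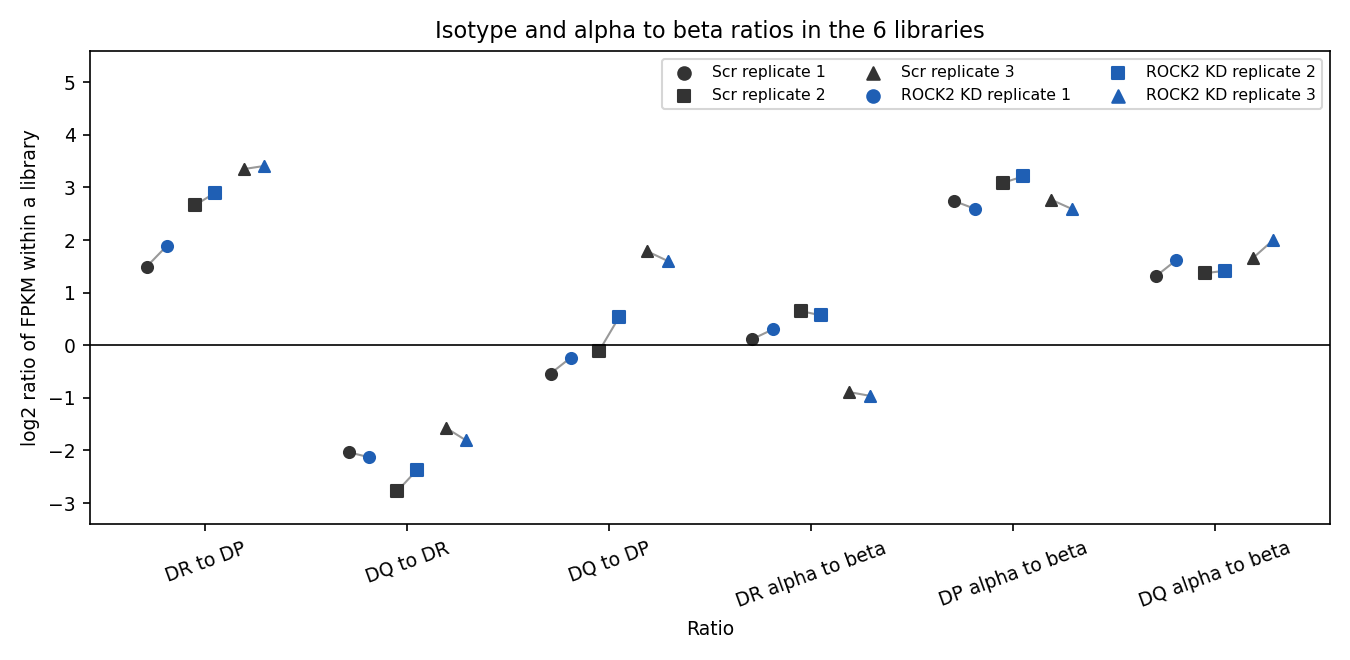
log2 ratios of FPKM as deposited within each library for 3 isotype ratios and 3 alpha to beta ratios, with black symbols for Scr, blue for ROCK2 KD, shapes for replicates and lines joining same-numbered libraries. The DR to DP and DQ alpha to beta ratios are higher in ROCK2 KD in each pair, and replicate 3 stands apart in the DR alpha to beta ratio, at 0.514 and 0.540 on the linear scale.

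Replicate 3 was low across the MHC in both groups. The median log2 difference between replicate 3 and the mean of replicates 1 and 2 was -1.83 in ROCK2 KD and -1.34 in Scr over the 10 genes, -1.60 and -2.04 over 6 class I chain genes, and -2.17 and -2.20 over 91 other MHC genes. It was 0.03 and 0.01 over the 413 genes of chromosome 6 outside the MHC. Among the 10, HLA-DPA1 was lowest in replicate 3, at -2.84 and -2.74, and HLA-DRB5 was above the mean of replicates 1 and 2, at 0.36 and 0.42, though below replicate 2.

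The values of replicate 3 were also written differently. Most values carried up to 6 significant digits, and of the MHC genes above 0, 68.8% in ROCK2 KD and 68.2% in Scr had more than 6 in replicate 3, against 0.667% to 2.65% in replicates 1 and 2. Outside the MHC the share was 0.371% to 0.559% in all 6 libraries. HLA-DRA had 15 digits in both libraries of replicate 3 and became a value of 6 or fewer digits when multiplied by 7, giving 253 FPKM in ROCK2 KD and 181 in Scr. HLA-DQB2 did so at 8, HLA-DPA1 at 4 and 8, HLA-DPB1 at 2, 4 and 8, and HLA-DQB1 at 3 and 6, as whole numbers up to 8 that held in both libraries. The other 5 genes had at most 6 digits as deposited in both libraries.

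Of the 107 MHC genes tested, the 88 with more than 6 digits were all lower in replicate 3 in both groups (median -2.18 and -2.28), and 17 of the other 19 were (median -1.62 and -1.63). When the replicate 3 values were multiplied by the smallest such number, the median difference over the 10 class II genes was -0.40 in ROCK2 KD and -0.25 in Scr, and with the largest it was -0.01 and 0.19. With HLA-DRB1 multiplied by 5, which its digits allow, HLA-DRB5 relative to HLA-DRB1 was 0.255 in ROCK2 KD and 0.229 in Scr, beside 0.243 to 0.274 in replicates 1 and 2. HLA-DRB1 also allows 1, 2 and 3, and HLA-DRB5, left as deposited here, also allows 2. The digits therefore do not single out this ratio, and the multiple of 5 was chosen after the ratios had been seen. How the deposited values of replicate 3 were made was not tested.

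The same multiple, allowed by the digits of both libraries, was applied to both libraries of pair 3. By construction this leaves their ratio as it is apart from the pseudocount, and whether that number entered the deposited values was not tested. On the log2(scaled FPKM + 1) scale, pair 3 of HLA-DPB1 went from 0.30 to 0.38 with the smallest multiple and to 0.48 with the largest, and HLA-DRA from 0.44 to 0.46 with either. Without replicate 3, the median log2 fold change of the 10 genes was 0.71, and all 10 were higher. Of the 10, 0 passed an adjusted p of 0.05 in limma, against 4 of all 10526 genes tested. Isotype and chain ratios were compared within the pair.

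**Figure D4:**
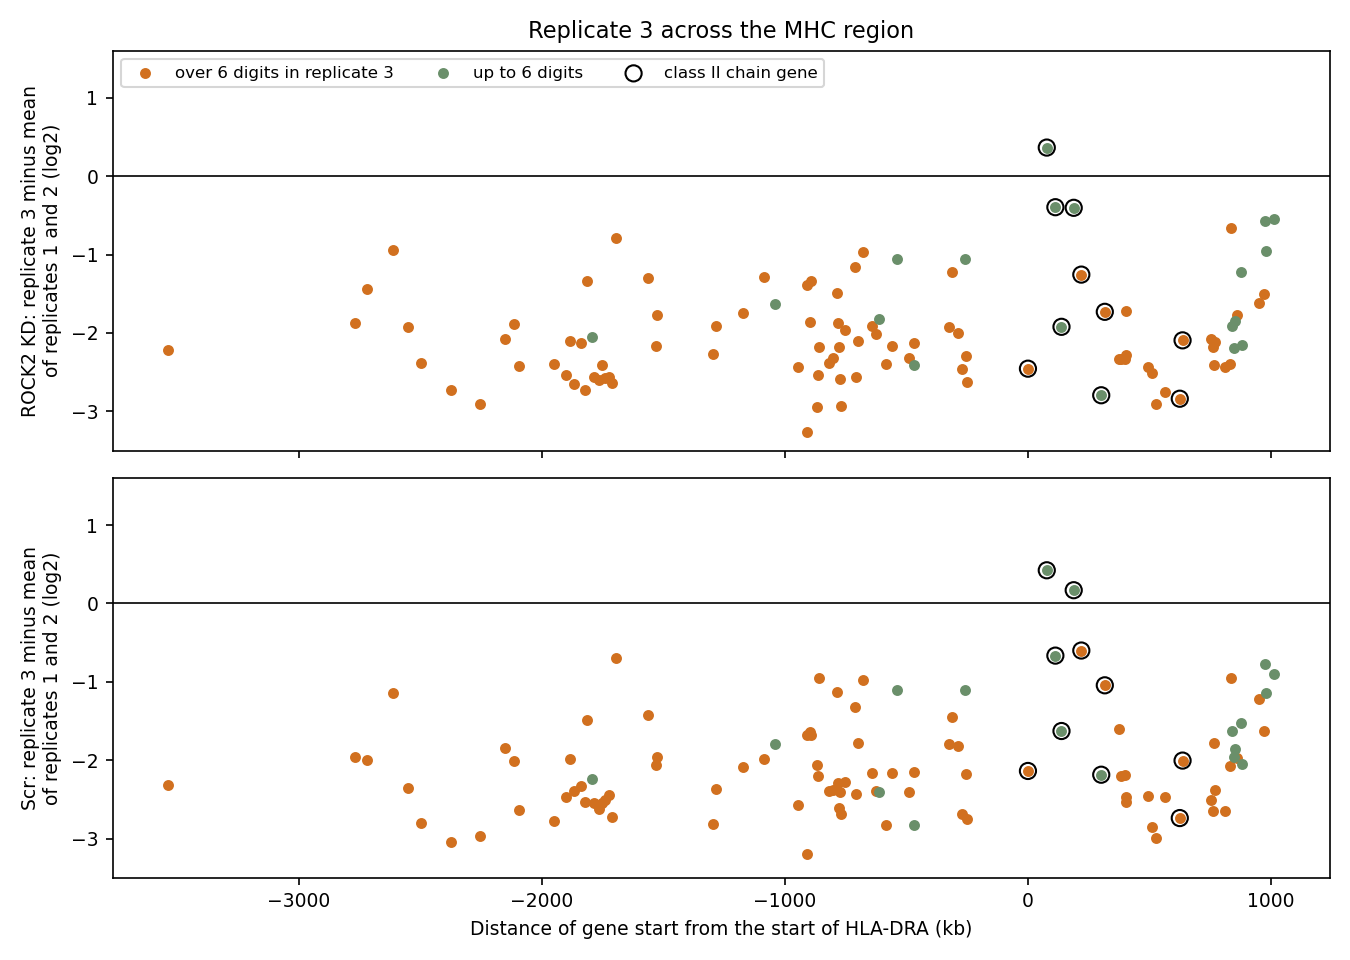
log2 difference between replicate 3 and the mean of replicates 1 and 2 for each MHC gene tested, by distance of its start from that of HLA-DRA in kb, in ROCK2 KD (upper) and Scr (lower). Orange marks genes with more than 6 digits in replicate 3, green the others, and circles the 10 class II chain genes, which spread from -2.84 to 0.42 while the other MHC genes all lie below 0.

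Replicates 1 and 2 also differed in class II expression. Replicate 2 was above replicate 1 by a median log2 of 1.52 in ROCK2 KD and 0.93 in Scr over the 10 genes on scaled values, against -0.06 and -0.08 over the 91 other MHC genes. CIITA, the class II coactivator, was at 2.71, 6.31 and 3.64 scaled FPKM in replicates 1, 2 and 3 of ROCK2 KD. In Scr it was at 1.30, 4.06 and 3.48, so that replicate 2 was 2.32-fold and 3.13-fold above replicate 1. Each of the 7 B cell markers was also higher in replicate 2 than in replicate 1, in both groups. MS4A1 was 2.44-fold higher in ROCK2 KD and 3.19-fold in Scr, and CD22 was 2.19-fold and 3.81-fold higher. CD79A differed least of these markers, 1.27-fold and 1.39-fold. The rise was therefore not particular to class II genes and CIITA, and its cause was not tested.

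The 8 tested genes of class II loading and editing had a median log2 fold change of 0.32, and 4 of 8 had an unadjusted p under 0.05 and were higher, against 3.09% of all genes tested, none with an adjusted p under 0.05. HLA-DMA, a chain of the peptide loader, was at 29.1, 97.1 and 11.2 FPKM in ROCK2 KD and at 24.3, 80.6 and 6.86 in Scr, higher in each pair. CD74, the invariant chain, encoded outside the MHC, was at 208, 992 and 713 in ROCK2 KD and 121, 836 and 663 in Scr, and was not low in replicate 3. HLA-DOA and HLA-DOB, the chains of the inhibitor of HLA-DM, were lower in ROCK2 KD in pair 3, with log2 differences of -0.08 and -0.37, and higher in pairs 1 and 2.

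Of 8 genes of class II transcription, 1 had an unadjusted p under 0.05 and was higher, against 3.09% of all genes tested. It was CIITA, with a log2 fold change of 0.43 ± 0.15 (limma, adjusted p = 0.888) and pair differences of 0.69, 0.53 and 0.05. RFX5, RFXANK, RFXAP, NFYA, NFYB, NFYC and CREB1, subunits of the RFX and NF-Y complexes and a further promoter factor, ranged from -0.14 to 0.10.

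Class I chains, which present peptides to CD8+ T cells, had a median of 0.33 over 7 tested genes, of which 4 had an unadjusted p under 0.05 and were higher (3.09% of all genes tested) and 3 were higher in all pairs (12.7% of all genes tested). B2M, the light chain, was at 616, 1028 and 2105 FPKM in ROCK2 KD and 485, 906 and 939 in Scr. The B cell markers had a median of 0.00, with pair medians of 0.45, 0.18 and -0.26, and 1 of 7, CD79A at 0.21, was higher in all pairs, a share near the 12.7% of all genes tested. CD22 was higher in ROCK2 KD in pairs 1 and 2, by log2 differences of 1.08 and 0.32, as each class II gene was. In pair 3, CD22 was lower, by -1.54, while each class II gene was higher. The part of these differences between libraries in the class II values was not tested.

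The genes outside the 10 whose values over the 6 libraries were most like those of HLA-DRA were TUBB, PSMB8, LTB, HLA-DMA and WDR46. Their root mean square differences of centred log2(scaled FPKM + 1) were 0.45, 0.51, 0.53, 0.53 and 0.55, and all 5 lie in the MHC, where they share the low replicate 3. Of the 10 themselves, HLA-DRB1 was nearest to HLA-DRA at 0.30, followed by HLA-DQA2 at 0.37, and HLA-DRB5 was farthest at 1.29.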

How the data were processed

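RNA from 6 U2932 libraries (3 ROCK2 KD, 3 Scr) was sequenced by the authors, aligned to hg19 with STAR and summarised as FPKM with Cufflinks, and the deposited FPKM of 20667 symbols were used as they stand. Samples were grouped by their titles. The paper gives an approximate range of depth for its samples, but FPKM do not state the depth of each library, so no counting interval is given.

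Scale factors of the libraries (0.682 to 1.24) were trimmed means of gene-wise log ratios, with trims of 0.3 and 0.05. Genes had to reach 1 FPKM in 3 or more of the 6 libraries, and the 10526 that did were fitted on log2(scaled FPKM + 1) with limma 3.58.1 in R 4.3.3 (replicate block, variance trend, two-sided, Benjamini-Hochberg, 0.05). This scale understates the change of low genes. Same-numbered libraries deviated together (correlations across genes of 0.848, 0.784 and 0.737), and the labels number both groups alike. Ratios within libraries were tested by exact permutation of signs. Significant digits were counted in the deposited text. Positions came from GENCODE 44 lifted to GRCh37, found for 18033 symbols, and promoters from RefSeq. Fits were tested on simulated data. Python 3.11.15, pandas and matplotlib were used.

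Members and gene lists were chosen with earlier results of these data known. Named genes are the 10 members, the pathway, class I and marker lists, ROCK2, ROCK1 and the 5 genes most like HLA-DRA. ROCK1 had a log2 fold change of 0.00, and HLA-DPB2 did not pass the filter. The values of 1 B cell marker are not reported here on their own. Alternatives covered the block, scaling, pseudocount, filter and left-out replicates, and, added after seeing the data, multiples of replicate 3 values and the Y box alone.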

Additional observations from a re-analysis of the deposited data

How the results depend on the processing

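All 10 class II genes were higher in ROCK2 KD under every setting in which they were tested, with medians of 0.42 to 0.71 when 1 replicate was left out, lowest without replicate 2. The pairing mattered for the tests: with no replicate block, limma called 0 genes, with the median of the 10 still at 0.57. An unadjusted p under 0.05 was then reached by 0 of the 10, against 30 of all 10526 genes tested. With replicate means removed first and no block, which does not reduce the residual degrees of freedom for the means removed, 93 genes were called, 48 of them higher (0.456%), among them HLA-DRA and HLA-DRB5 (adjusted p = 0.0290), HLA-DRB1 (0.0337) and HLA-DPB1 (0.0367). Leaving out replicates gave 0 to 17 called genes, 17 without replicate 1 and 4 without replicate 3, with 0 of the 10 each time.

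The difference of replicate 3 over the 10 genes moved to -0.40 in ROCK2 KD and -0.25 in Scr with the smallest multiples and to -0.0072 and 0.19 with the largest, and ran from -2.36 to -1.08 and from -1.77 to -0.81 against single replicates. With a pseudocount of 1 the DQ to DR difference became -0.022 and the DP alpha to beta difference 0.022. With 1 replicate left out, the DR alpha to beta difference ran from -0.076 to 0.056 and the DQ to DR difference from -0.17 to 0.16. The cause was not tested. FPKM do not state the depth of each library, so the precision of low genes such as HLA-DQB2 is not known.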
